A study of Mus musculus with 8 samples.

Results

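The 10 genes described here, Dusp1, Dusp4, Dusp5, Dusp6, Dusp7, Dusp8, Dusp9, Dusp10, Dusp14 and Dusp16, encode dual-specificity phosphatases that act on MAP kinases. They were picked by gene symbol, all 10 were found in every library among 54146 genes in the table, and all 10 passed the filter on low counts, Dusp9 only through the control KD libraries, in which it was higher. Dusp7 was picked because its induction by TNF-α looked smaller after GSTM1 knockdown in an earlier analysis of the same libraries. Its change within one state or one knockdown, its mean knockdown effect and its mean TNF-α response use the libraries that chose it. For that reason they are given below as a description with no test. The same holds for every gene's difference between the TNF-α responses. The libraries came from primary mouse cortical astrocytes, which formed 4 groups of 2 biological replicates. Cultures with either knockdown (control KD or GSTM1 KD) were left unstimulated (basal) or were given 50 ng/ml TNF-α for 6 h. The cells came from the cortices of C57BL/6 pups at postnatal days 2 to 5. All 4 groups shared infection with a lentivirus, puromycin selection and removal of CD11b-positive cells, and differed in the short hairpin RNA, which was directed against Gstm1 in GSTM1 KD and was non-silencing in control KD. How many hairpins were used against Gstm1 is not given in the sources used here.

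MAP kinases (ERK, JNK and p38) are switched on when an upstream kinase phosphorylates a threonine and a tyrosine in their activation loop. Dual-specificity phosphatases remove both phosphates and so switch the kinases off. Several of their genes are themselves induced by the pathway that they inhibit, which makes them feedback regulators, and in glial cells ERK, JNK and p38 lie downstream of TNF receptors. Dusp1, Dusp4 and Dusp5 encode inducible nuclear enzymes, Dusp6, Dusp7 and Dusp9 encode mainly cytoplasmic enzymes that prefer ERK, and Dusp8, Dusp10 and Dusp16 encode enzymes that prefer JNK and p38. Dusp14 encodes a small atypical enzyme that lacks the kinase-binding domain of the others.

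The knockdown was checked first. Gstm1, the target, had 676 and 626 counts in unstimulated GSTM1 KD, against 8153 and 9644 in unstimulated control KD. The stimulated libraries had 527 and 405 counts of it, against 4851 and 6492. The libraries held 17349682 to 34434615 counts, and the common coefficient of variation between replicates was 15.4% over all 8 libraries. Some markers of astrocytes and of other cell types differed with the knockdown. The summed values of each list (counts scaled to library size, CPM, without TNF-α) are given as control KD against GSTM1 KD. The 12 astrocyte markers summed to 3551 to 8325 CPM, the low end in replicate 1, against 7582 to 11375 CPM, but in each state 1 of the 12, S100b, passed, and it was lower (log2 change -1.44 and -1.71). Over both states Glul (0.84) and Fgfr3 (0.61) passed as higher beside it. The 10 microglia markers summed to 3.40 to 9.39 CPM against 1.60 to 3.18 CPM. P2ry12 had 3 counts or fewer in every library, and C1qa, Csf1r and Itgam had up to 78, 63 and 61. The 6 endothelial markers summed to 17.1 to 18.6 CPM against 9.01 to 11.97 CPM. Cldn5 and Tie1 had 3 counts or fewer in every library and Flt1 and Cdh5 up to 408 and 218, and over both states Flt1 and Cdh5 passed as lower and Kdr as higher. The 10 oligodendrocyte lineage markers summed to 710 to 840 CPM against 608 to 615 CPM, with Mog and Mag at 3 counts or fewer, and over both states Olig1, Olig2 and Pdgfra passed as lower. The 7 fibroblast and pericyte markers summed to 310 to 505 CPM against 231 to 348 CPM, and over both states Col1a2 passed as lower (-1.04) and Pdgfrb (0.65) and Rgs5 (1.60) as higher. The 6 ependymal and choroid plexus markers summed to 114 to 174 CPM against 146 to 160 CPM, and over both states Rsph1 passed as higher (0.55). The 7 neuron markers summed to 101 to 117 CPM against 98.4 to 133 CPM, and 0 of the 3 tested passed over both states. Markers that only one of the knockdowns carried past the filter are left out of these calls. The mitochondrial share of counts was 1.21% to 1.51% in control KD and 1.87% to 1.99% in GSTM1 KD over both states. The part of these differences in the results below was not tested. In bulk RNA, fewer cells of one type and less RNA per cell cannot be told apart.

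All 10 genes carry the short catalytic stretch that starts with a histidine and the catalytic cysteine and ends with an arginine. Its 24 coding bases, 5′ to 3′, are shown for 6 genes on which the results turn, with the cysteine and arginine codons in capitals. The sequences are from GENCODE transcripts on GRCm38.
Dusp7: cacTGCctagcaggcatcagcCGT
Dusp6: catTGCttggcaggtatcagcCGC
Dusp9: cacTGTctggcaggggtcagcCGC
Dusp1: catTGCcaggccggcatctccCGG
Dusp8: cacTGTctggctggcatctctCGC
Dusp14: cacTGTgcggcaggcgtgagcCGC
Of the 24 bases, 11 were the same in all 10 genes. Against Dusp7, Dusp6 and Dusp9 shared 19 bases, Dusp4 shared 18, Dusp1, Dusp8, Dusp14 and Dusp16 shared 17, Dusp10 shared 16 and Dusp5 shared 15.

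The stretches of Dusp7, Dusp6 and Dusp9 lie at chr9:106373674-106373697, chr10:99266027-99266050 and chrX:73642119-73642142, all on the plus strand. Those of Dusp1, Dusp8 and Dusp14 lie on the minus strand at chr17:26506592-26506615, chr7:142083333-142083356 and chr11:84048863-84048886. Each lies within a single coding exon. The genes differed in size, from a coding length of 594 bases in Dusp14 to 1989 bases in Dusp8, and had 3 to 7 exons in the transcript used. Dusp7 (ENSMUSG00000053716.9) spans chr9:106368632-106375724, Dusp8 (ENSMUSG00000037887.11) chr7:142079490-142095843 and Dusp14 (ENSMUSG00000018648.15) chr11:84048041-84069261. The Dusp1 transcript used (gene ENSMUSG00000024190.6 in the files) spans chr17:26505590-26508519.

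The promoters of the genes, from 250 bases before to 50 bases after the start in RefSeq on GRCm38.p6, were rich in G and C. A promoter was matched for 8 of the 10 genes, all but Dusp4 and Dusp9. Their GC content ran from 57.3% in Dusp6 to 78.7% in Dusp7, against a median of 52.7% over all promoters, and the Dusp7 promoter held 41 CpG pairs against a median of 7. The 8-base cyclic AMP response element TGACGTCA, searched on both strands, was in the promoters of Dusp1 and Dusp8 and in 1.79% of 32817 promoters. The AP-1 word TGANTCA (7.81%) and the ETS word CCGGAAGT (3.89%), searched on both strands, were not in these 8 windows, nor was TATAAA on the strand of the gene (8.32%). The 24-base windows with the element, in capitals, are shown because Dusp1 and Dusp8 changed in opposite directions in GSTM1 KD.
Dusp1, 143 bases before the start, chr17:26508600-26508623: agggcgggTGACGTCAccgcccgg
Dusp8, 107 bases before the start, chr7:142095376-142095399: cgctccgcTGACGTCAcctgcccc
Dusp8, 63 bases before the start, chr7:142095332-142095355: gctgcaggTGACGTCAggggcttt
All 3 windows are written on the minus strand, on which both genes lie. A match describes the letters and not binding of a factor.

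Levels of the 10 mRNAs were compared with each other per length, in TPM, the transcript abundance that RSEM scales to the same total in every library. Dusp1 had the highest level in control KD without TNF-α, 137 ± 20.7 TPM (SD, n = 2). Dusp5 (61.0 ± 11.8 TPM) and Dusp6 (53.9 ± 7.13 TPM) followed with overlapping libraries, then Dusp14 (30.6 ± 7.30 TPM), Dusp7 (20.7 ± 0.191 TPM), Dusp10 (18.5 ± 1.00 TPM), Dusp16 (15.8 ± 0.679 TPM), Dusp4 (11.8 ± 1.69 TPM) and Dusp8 (2.98 ± 0.156 TPM). Dusp9, which encodes an ERK phosphatase, had the lowest level, 0.550 ± 0.283 TPM. Dusp1 was also the highest and Dusp9 the lowest by mean in each of the other groups, but in GSTM1 KD with TNF-α the Dusp1 libraries (59.4 and 65.9 TPM) overlapped those of Dusp5 (50.2 and 59.7 TPM). Dusp14 was the second in order in GSTM1 KD without TNF-α (61.0 ± 4.84 TPM), where its libraries overlapped those of Dusp6 (50.5 and 67.4 TPM). Dusp7 was the third in order in control KD with TNF-α (35.1 ± 2.72 TPM), where its libraries overlapped those of Dusp6 (33.4 ± 7.37 TPM), and the seventh in GSTM1 KD (18.1 ± 0.262 TPM).

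The summed level of the 10 mRNAs was 348 and 358 TPM in control KD and 330 and 327 TPM in GSTM1 KD without TNF-α. With TNF-α it was 316 and 277 TPM in control KD and 267 and 254 TPM in GSTM1 KD. Its make-up also differed between the groups. Dusp1 made up 35.3% and 42.4% of the sum in control KD, against 24.8% and 25.0% in GSTM1 KD without TNF-α. Dusp14 made up 7.29% and 9.97% in control KD, against 17.4% and 19.7% in GSTM1 KD. The 3 inducible nuclear phosphatases together made up 58.9% to 60.1% of the sum in control KD, against 41.7% to 43.2% in GSTM1 KD. The 3 phosphatases of JNK and p38 made up 10.4% to 10.7%, against 14.7% to 15.9%. With TNF-α the nuclear group made up 53.8% to 55.6% in control KD and 46.2% to 49.3% in GSTM1 KD. These shares were not tested, since a share of one gene depends on the others.

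**Figure D1:**
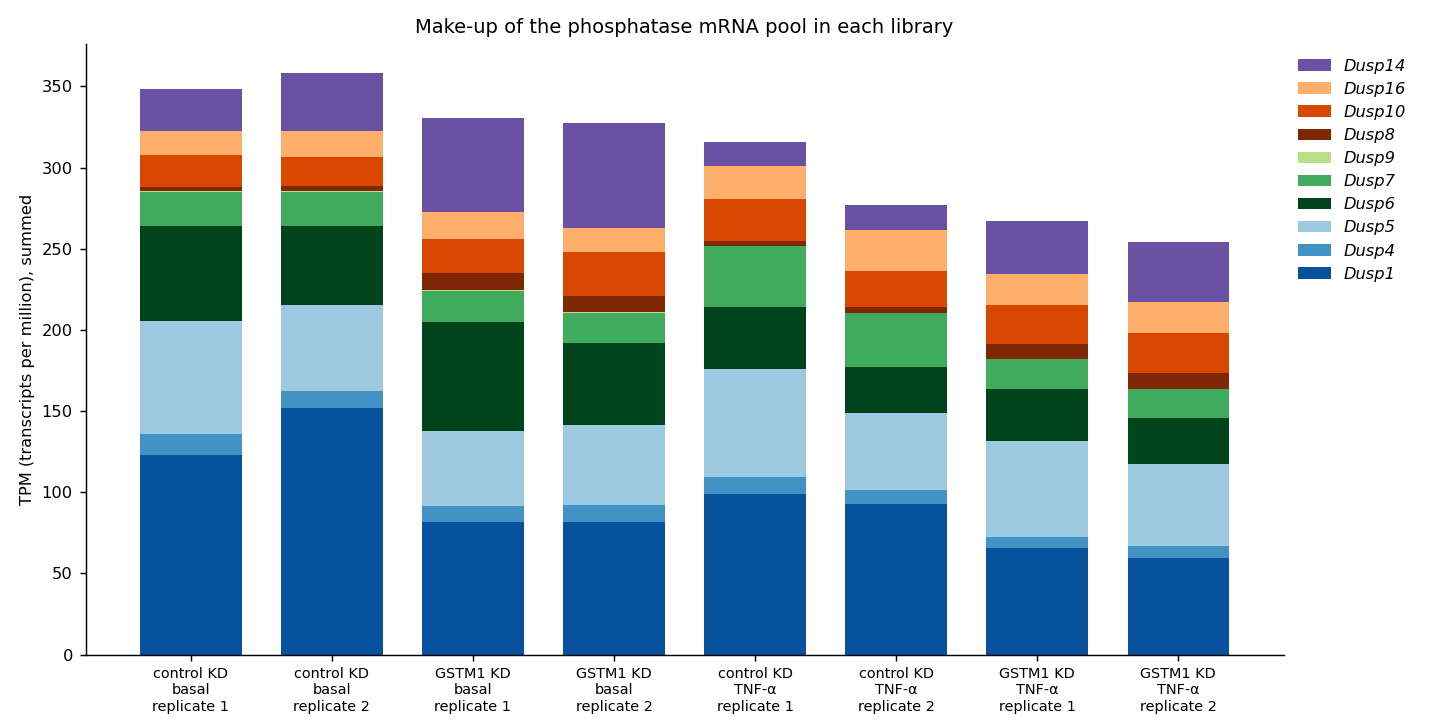
Level of each of the 10 phosphatase mRNAs (y axis, TPM, stacked) in each of the 8 libraries (x axis), with nuclear enzymes in blue, cytoplasmic ERK enzymes in green, JNK and p38 enzymes in orange to brown and Dusp14 in purple. The purple segment is 57.6 and 64.4 TPM in GSTM1 KD against 25.4 and 35.7 TPM in control KD without TNF-α, and the dark blue Dusp1 segment is 81.8 and 81.7 against 123 and 152 TPM.

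GSTM1 KD astrocytes had less Dusp1 mRNA and more Dusp8 and Dusp14 mRNA than control KD astrocytes, both without and with TNF-α. Without TNF-α 3 of the 8 genes other than Dusp7 and Dusp9 passed the edgeR quasi-likelihood test at an adjusted p of 0.05 (Benjamini-Hochberg over all genes tested), 2 as higher in GSTM1 KD and 1 as lower. Of 14899 genes tested, 10.2% passed, 4.6% as higher and 5.62% as lower. With TNF-α 3 of 8 passed, 2 higher and 1 lower, beside 16.2% of 14593 genes (7.26% higher and 8.92% lower). Dusp9 is left out of these counts because it was tested only through the group in which it was high. The median log2 change of the 8 genes was 0.04 without TNF-α and -0.11 with TNF-α, against -0.0020 and -0.011 over all genes tested. Control KD and GSTM1 KD libraries did not overlap for 6 of the 8 genes without TNF-α and for 5 with TNF-α, beside 63.5% and 66.6% of all genes. Each of these calls was lost when either of the GSTM1 KD libraries in its comparison was left out, which left 1 library in that group.

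The mean knockdown effect over both states, from all 8 libraries, averages the differences without and with TNF-α. It includes the stimulated libraries in which Dusp7 was seen to be induced less, so Dusp7 is left out of its counts. Of the 8 genes other than Dusp7 and Dusp9, Dusp8 and Dusp14 passed as higher in GSTM1 KD and Dusp1 and Dusp4 as lower. They stand beside 39.8% of 15332 genes (20.1% higher and 19.6% lower). The libraries of the 2 knockdowns did not overlap for 2 of the 8 genes other than Dusp7 and Dusp9 (Dusp1 and Dusp8), beside 38% of all genes. The median log2 change of the 9 genes other than Dusp9, Dusp7 included, was -0.16, against 0.0082 over all genes. Dusp1, Dusp8 and Dusp14 also passed when any one of the 8 libraries was left out, with adjusted p-values of at most 0.00733. Dusp4 passed in 2 of those 8 fits, those without replicate 2 of control KD in either state, and had adjusted p-values of 0.0577 to 0.122 in the others.

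**Figure D2:**
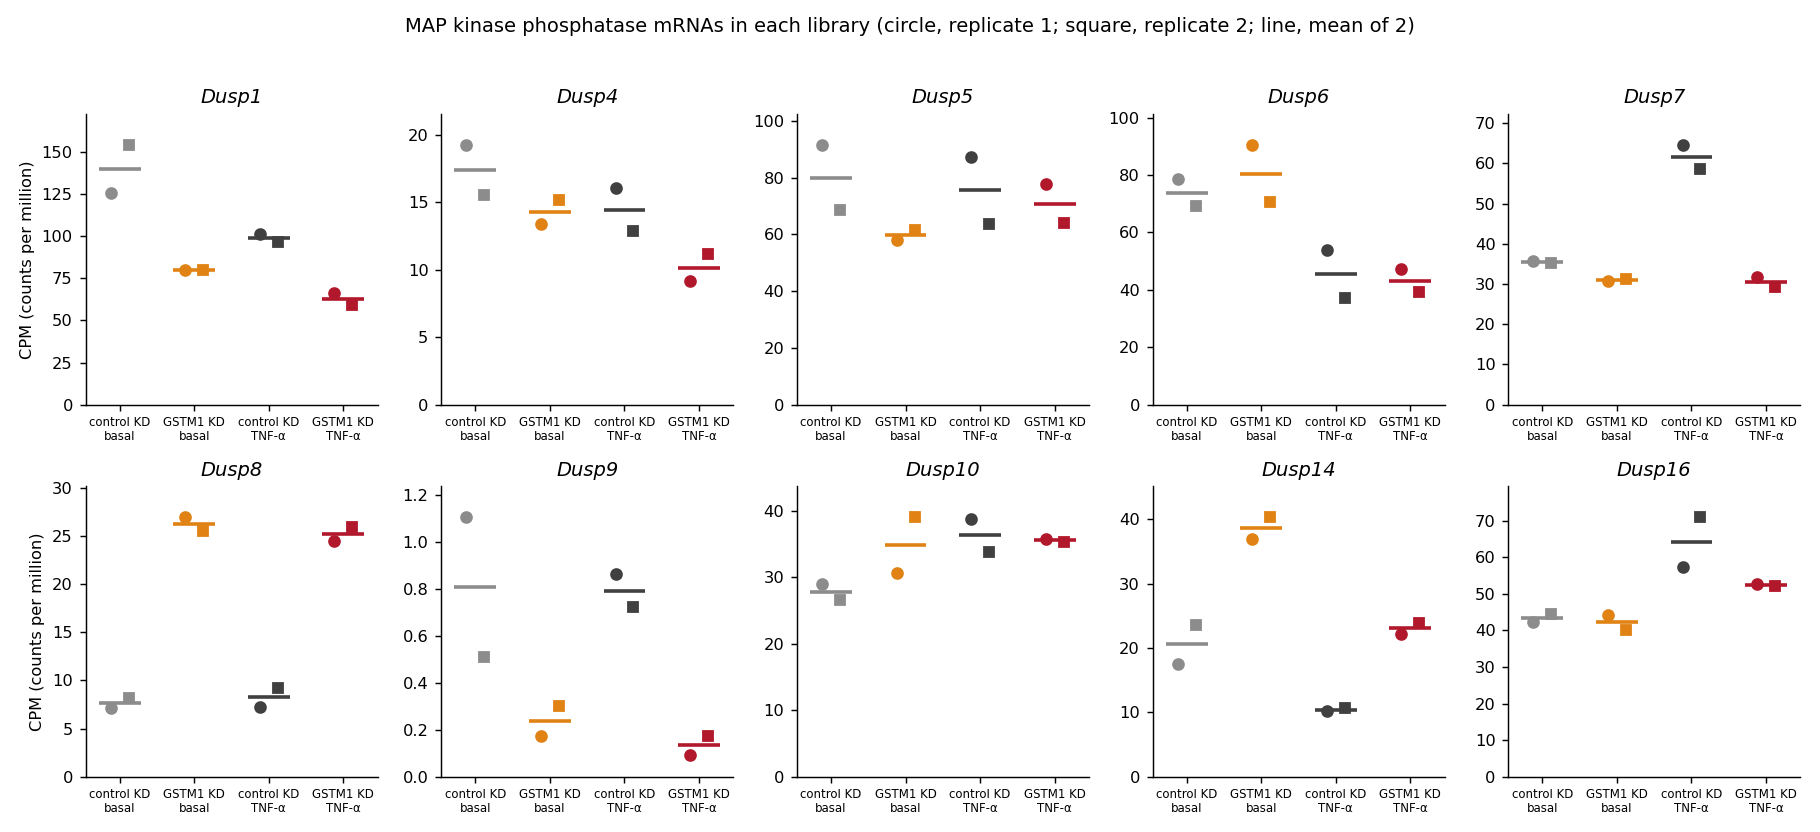
Normalised level of each phosphatase mRNA (y axis, CPM, from 0) in the 2 libraries of each group (x axis), with a line at the mean of 2. Dusp8 lies at 24.5 to 27.0 CPM in all GSTM1 KD libraries and at 7.13 to 9.27 CPM in all control KD libraries, and Dusp7 at 58.6 and 64.5 CPM in control KD with TNF-α and at 29.3 to 35.6 CPM in the other 6 libraries.

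In the TNF-α response of control KD 1 of the 9 genes, Dusp14, passed, and it was lower, beside 2.63% of 15332 genes (2.1% higher and 0.528% lower). There, 5 of 9 had an unadjusted p under 0.05, beside 12.5% of genes, and DESeq2 called 4 (Dusp1, Dusp6 and Dusp14 lower and Dusp16 higher), beside 4.58% of the 16208 genes to which it gave an adjusted p. The same genes passed in edgeR with a replicate block. In GSTM1 KD 0 of 9 passed in edgeR on all 8 libraries with the filter on low counts, TMM scaling and no replicate block. In that fit 2.65% of genes passed (2.35% higher and 0.294% lower). With library size only 1, Dusp14, passed, and 2 passed without the filter, with the block or on the 4 libraries of GSTM1 KD. In that response 5 of 9 had an unadjusted p under 0.05, beside 10.9% of genes, and DESeq2 called 2 (Dusp6 and Dusp14, both lower), beside 3.77% of 16722. As a mean over both knockdowns, and with Dusp7 left out, Dusp16 passed as higher and Dusp1, Dusp6 and Dusp14 as lower with TNF-α. They stand beside 6.77% of all genes (4.81% higher and 1.96% lower). Of all genes called in this test 71.1% were higher, and 60.0% when libraries were scaled by library size only. Among the cell type markers, Pdgfrb (log2 change -1.09), Sox9 (-0.71) and Olig2 (-0.53) also passed in this test, all lower with TNF-α, and their part in the result was not tested. The median log2 change of the 10 genes in this test, Dusp7 included, was -0.18, against -0.015 over all genes. Of these calls of phosphatases, that of Dusp14 held when any one library was left out. The others were lost in 3 to 6 of the 8 fits, which are named with each gene. The stimulated and unstimulated libraries of both knockdowns together did not overlap for 2 of the 9 genes other than Dusp7 (Dusp6 and Dusp16), beside 7.73% of genes. Libraries with and without TNF-α did not overlap for 5 of 9 genes in control KD and 6 of 9 in GSTM1 KD, beside 34.5% and 44.5% of all genes.

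**Figure D3:**
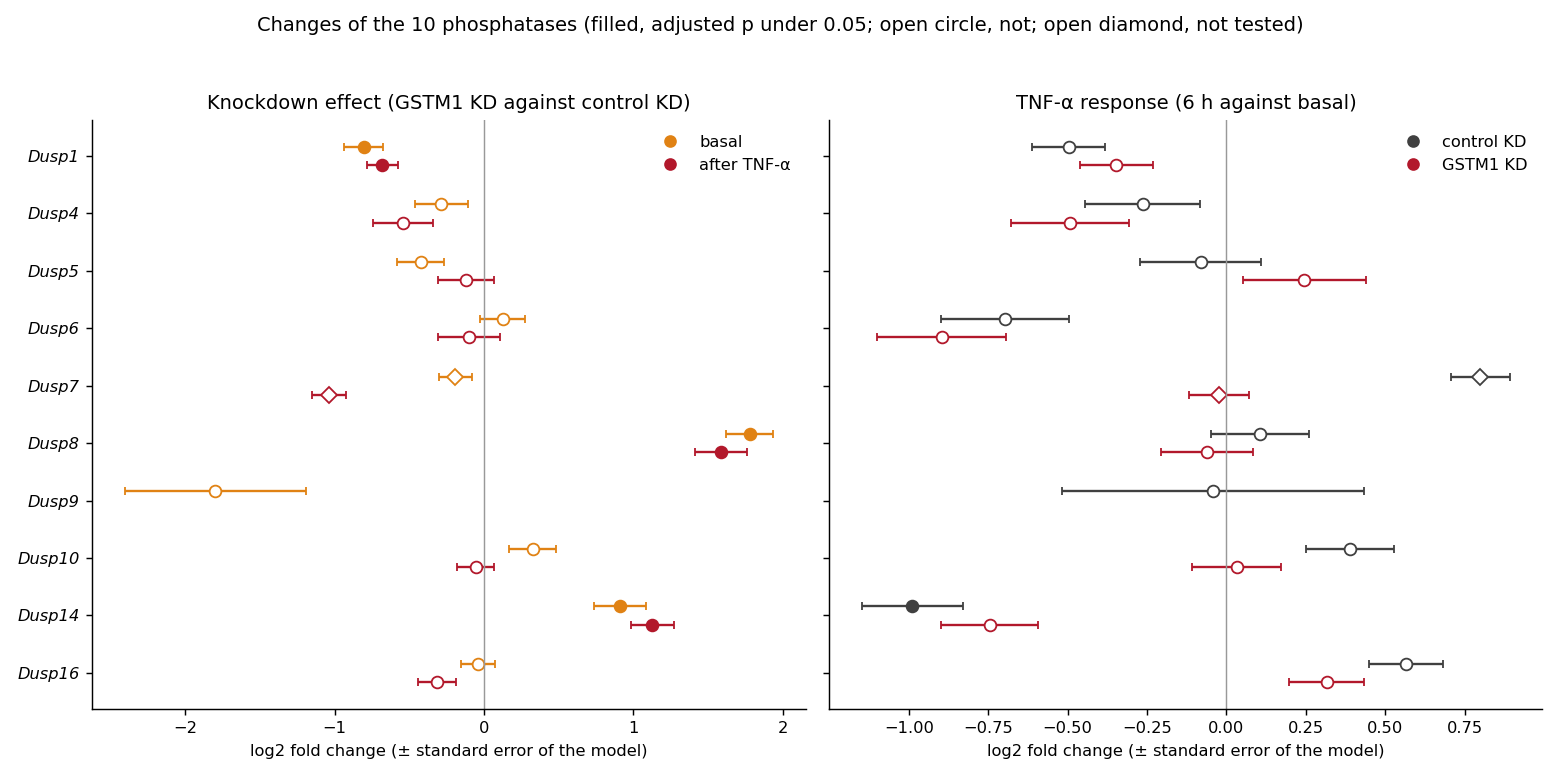
Log2 fold change of each gene (x axis, ± standard error of the model) for the knockdown effect without and with TNF-α (left) and for the TNF-α response of each knockdown (right), with Dusp9 left out where GSTM1 KD after TNF-α had 3 counts or fewer. Dusp8 and Dusp14 lie to the right of 0 and Dusp1 to the left in both states, and the Dusp7 response is 0.80 in control KD and -0.02 in GSTM1 KD.

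Among the inducible nuclear phosphatases, Dusp1 encodes the enzyme that inactivates p38 and JNK in the nucleus. It stood at 126 and 154 CPM in unstimulated control KD, against 80.0 and 80.2 CPM in unstimulated GSTM1 KD. Under TNF-α the values were 101 and 96.9 CPM in control KD, against 66.5 and 59.4 CPM in GSTM1 KD. Every GSTM1 KD library was thus below every control KD library, also across the 2 states. The level in GSTM1 KD was 1.75-fold lower without TNF-α (log2 change -0.80 ± 0.131 SE, adjusted p = 0.0270) and 1.60-fold lower with TNF-α (log2 change -0.68 ± 0.105, adjusted p = 0.0190). The mean knockdown effect was -0.73 ± 0.0818 (adjusted p = 0.000898) and the mean TNF-α response was -0.42 ± 0.0816 (adjusted p = 0.0242), a call that held when either unstimulated control KD library was left out and was lost when any of the other 6 was (adjusted p = 0.0578 to 0.118). Without the GSTM1 KD libraries in turn, the change without TNF-α was -0.80 and -0.81 with adjusted p-values of 0.167 and 0.223, and that with TNF-α was -0.75 and -0.60 with 0.102 and 0.177.

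Dusp4 and Dusp5 encode the other nuclear enzymes of the group, of which the Dusp5 enzyme prefers ERK. Dusp4 stood at 19.2 and 15.5 CPM in unstimulated control KD, against 13.4 and 15.1 CPM in unstimulated GSTM1 KD. Stimulated control KD had 16.02 and 12.88 CPM, against 9.15 and 11.1 CPM in stimulated GSTM1 KD. Its groups did not overlap within a state, but neither comparison passed (adjusted p = 0.319 and 0.118, the second at 0.0395 without replicate 2 of control KD), and the mean knockdown effect did, at -0.40 ± 0.130 (adjusted p = 0.0445). That call of Dusp4 was lost with library size only and with effective-length offsets. Dusp5 stood at 91.3 and 68.6 CPM in unstimulated control KD, against 58.0 and 61.4 CPM in unstimulated GSTM1 KD. In the stimulated libraries it stood at 87.2 and 63.8 CPM for control KD, against 77.6 and 63.9 CPM for GSTM1 KD. In both states replicate 1 of control KD was the highest library. Dusp5 did not pass in edgeR with all libraries, the filter on low counts and no replicate block (adjusted p of 0.136 or more), and its calls depended on these choices. Its change without TNF-α was -0.42 (adjusted p = 0.136), and -0.62 without replicate 2 of control KD (adjusted p = 0.00201). Its mean knockdown effect passed without replicate 2 of stimulated control KD (adjusted p = 0.0499). Its exons overlap the gene AC137853.2 on the opposite strand, so its counts are uncertain where the counting did not use the strand.

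Dusp7, a cytoplasmic ERK phosphatase, was the gene whose TNF-α response chose the list. It stood at 35.6 and 35.1 CPM (1260 and 898 counts) in unstimulated control KD, against 30.8 and 31.2 CPM (717 and 623 counts) in unstimulated GSTM1 KD. With TNF-α it stood at 64.5 and 58.6 CPM (1497 and 974 counts) in control KD, against 31.7 and 29.3 CPM (687 and 509 counts) in GSTM1 KD. The stimulated control KD libraries thus stood above the other 6, and the stimulated and basal GSTM1 KD libraries overlapped. The log2 TNF-α response was 0.80 ± 0.0933 (1.74-fold) for control KD, against -0.02 ± 0.0946 for GSTM1 KD, and the difference of responses was -0.82 ± 0.133. Between knockdowns the log2 change was -0.19 ± 0.112 without TNF-α and -1.04 ± 0.114 with TNF-α. These values are descriptions with no test. The difference of responses lay between -0.90 and -0.74 when each library was left out and between -0.85 and -0.81 under the other settings. Averaged over both states, the log2 change of Dusp7 was -0.60 ± 0.0664 (1.52-fold lower in GSTM1 KD), which combines the -0.19 and -1.04 above. It too is a description with no test, because it includes the stimulated libraries that chose the gene. Averaged over both knockdowns, its TNF-α response was 0.39 ± 0.0663, a description with no test, because the gene was picked for its induction by TNF-α.

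Dusp6 encodes a close relative of the Dusp7 enzyme, which also prefers ERK in the cytoplasm. It did not share the pattern of Dusp7. Dusp6 stood at 78.4 and 69.1 CPM in unstimulated control KD, against 90.3 and 70.6 CPM in unstimulated GSTM1 KD. With TNF-α it stood at 53.8 and 37.1 CPM in control KD, against 47.2 and 39.2 CPM in GSTM1 KD. The libraries of the 2 knockdowns overlapped in both states, and all 4 stimulated libraries were below all 4 basal libraries. The mean TNF-α response was a 1.74-fold fall (log2 change -0.80 ± 0.143, adjusted p = 0.0182), which was lost without replicate 1 of unstimulated GSTM1 KD or either stimulated GSTM1 KD library (adjusted p = 0.0583 to 0.0876), while the mean knockdown effect was 0.03 ± 0.143 (adjusted p = 0.904). The response was -0.70 ± 0.202 for control KD (adjusted p = 0.167), against -0.90 ± 0.203 for GSTM1 KD (adjusted p = 0.0823), and the difference of responses was -0.20 ± 0.285. With a replicate block the responses of both knockdowns passed. The effective length of Dusp6 varied 1.16-fold between libraries, the widest of the 10 genes.

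Dusp9, the third of the cytoplasmic ERK phosphatases, was barely detected. Unstimulated control KD gave 39 and 13 counts of it, against 4 and 6 in unstimulated GSTM1 KD. With TNF-α the counts were 20 and 12 in control KD, against 2 and 3 in GSTM1 KD. Each GSTM1 KD library had fewer counts than each control KD library. Per library total, control KD had 3.64 times the Dusp9 counts of GSTM1 KD without TNF-α (95% exact interval 1.83 to 8.04) and 6.25 times with TNF-α (2.42 to 20.6), and these intervals cover counting error only. The first ratio was 2.11 without replicate 1 of control KD and between 2.83 and 4.85 without any one of the other libraries, and the second was between 4.66 and 8.65 with any one library left out. These are descriptions with no test, since Dusp9 passed the filter only through control KD, and it was not tested where every library had to have 10 counts.

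Among the phosphatases of JNK and p38, Dusp8 had the largest rise in GSTM1 KD of the 10 genes. It stood at 7.13 and 8.21 CPM in unstimulated control KD, against 27.0 and 25.6 CPM in unstimulated GSTM1 KD. Stimulated control KD had 7.28 and 9.27 CPM, against 24.5 and 25.9 CPM in stimulated GSTM1 KD. The lowest GSTM1 KD library was more than 2 times above the highest control KD library, and within each knockdown the basal and stimulated libraries overlapped. The level in GSTM1 KD was 3.43-fold higher without TNF-α (log2 change 1.78 ± 0.158, adjusted p = 0.0132) and 3.0-fold higher with TNF-α (log2 change 1.59 ± 0.172, adjusted p = 0.0112). The mean knockdown effect was 1.70 ± 0.108 (adjusted p = 0.000166), and the mean TNF-α response was 0.02 ± 0.106 (adjusted p = 0.970). Without the GSTM1 KD libraries in turn the change was 1.74 and 1.81 without TNF-α (adjusted p = 0.0833 and 0.0999) and 1.64 and 1.55 with TNF-α (adjusted p = 0.0691 and 0.0698).

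Dusp10 and Dusp16 encode the other phosphatases of JNK and p38. Dusp10 stood at 28.9 and 26.5 CPM in unstimulated control KD, against 30.6 and 39.0 CPM in unstimulated GSTM1 KD. In the stimulated libraries it stood at 38.8 and 33.8 CPM for control KD, against 35.8 and 35.3 CPM for GSTM1 KD. It passed in none of the tests, with adjusted p-values of 0.221 or more in the edgeR fits that used none of the alternatives. Under the alternatives other than leaving out a library they ran down to 0.115. It passed in no fit that left out a library. Dusp16 stood at 42.3 and 44.4 CPM in unstimulated control KD, against 44.3 and 40.1 CPM in unstimulated GSTM1 KD, so that the groups overlapped. Under TNF-α the values were 57.5 and 70.9 CPM in control KD, against 52.7 and 52.3 CPM in GSTM1 KD. All 4 stimulated libraries were above all 4 basal libraries, and the mean TNF-α response of Dusp16 was 0.44 on the log2 scale (adjusted p = 0.0220). The call was lost without replicate 1 of unstimulated control KD or any GSTM1 KD library (adjusted p = 0.0513 to 0.0983). The response was 0.57 ± 0.117 for control KD (adjusted p = 0.0579), against 0.32 ± 0.118 for GSTM1 KD (adjusted p = 0.354), and the mean knockdown effect was -0.16 ± 0.0829 (adjusted p = 0.155). With a replicate block the response of control KD passed. Without replicate 1 of stimulated control KD, Dusp16 passed in the response of control KD (adjusted p = 0.0338), in the knockdown effect with TNF-α (adjusted p = 0.0253, against 0.137) and in the mean knockdown effect (adjusted p = 0.0464).

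Dusp14, the atypical phosphatase, changed with both the knockdown and TNF-α, in opposite directions. It stood at 17.5 and 23.6 CPM in unstimulated control KD, against 37.0 and 40.3 CPM in unstimulated GSTM1 KD. With TNF-α it stood at 10.1 and 10.6 CPM in control KD, against 22.2 and 23.8 CPM in GSTM1 KD. The stimulated GSTM1 KD libraries therefore overlapped the basal control KD libraries. The level in GSTM1 KD was 1.88-fold higher without TNF-α (log2 change 0.91 ± 0.176, adjusted p = 0.0363) and 2.19-fold higher with TNF-α (log2 change 1.13 ± 0.142, adjusted p = 0.0134). The TNF-α response was -0.99 ± 0.159 for control KD (adjusted p = 0.0238), against -0.75 ± 0.154 for GSTM1 KD (adjusted p = 0.0588), and the difference of responses, which was not tested, was 0.24 ± 0.220. With a replicate block the response of GSTM1 KD passed too. The mean TNF-α response was a 1.82-fold fall (adjusted p = 0.00427), and the mean knockdown effect was a 2.04-fold rise (adjusted p = 0.000784). Without the GSTM1 KD libraries in turn, the knockdown effect was 0.97 and 0.84 without TNF-α (adjusted p = 0.134 and 0.237) and 1.19 and 1.08 with TNF-α (adjusted p = 0.0747 and 0.101). The call in control KD was lost in 7 of 8 fits that left out a library, all but that without replicate 1 of control KD without TNF-α (adjusted p = 0.0564 to 0.117), and in the fit of the 4 control KD libraries alone (adjusted p = 0.189).

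Among the 10 genes, the difference of TNF-α responses (GSTM1 KD minus control KD, on the log2 scale) was -0.82 ± 0.133 in Dusp7 and -0.78 ± 0.887 in Dusp9, where it rests on 2 and 3 counts in stimulated GSTM1 KD. In the other 8 it ran from -0.36 ± 0.197 in Dusp10 to 0.33 ± 0.272 in Dusp5. Dusp6 lay within that range.

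Genes whose pattern over the 8 libraries was most like that of Dusp7 were sought among 15331 other genes by Pearson's r of log2 CPM. The 5 highest were Parvb (r = 0.989), which encodes an actin-binding adaptor of integrin adhesions, Fnbp1l (r = 0.963), which encodes a membrane-bending protein, Nfkbid (r = 0.959), which encodes a nuclear inhibitor of NF-κB, Mkl1 (r = 0.958), which encodes a coactivator of serum response factor, and Zc3h3 (r = 0.945), which encodes a zinc finger protein. These genes were chosen for this likeness, the 8 libraries share their depth and composition, and no test was made. Parvb had 8.71 and 7.98 CPM in control KD without TNF-α and 11.6 and 10.9 CPM with TNF-α, against 7.60 to 7.71 CPM in the 4 GSTM1 KD libraries. Mkl1 had 42.6 and 43.1 CPM without TNF-α and 56.6 and 58.9 CPM with TNF-α in control KD, against 35.9 to 40.1 CPM in GSTM1 KD. Nfkbid was near the floor of detection, with 3 to 21 counts per library, so its r rests on few reads.

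**Figure D4:**
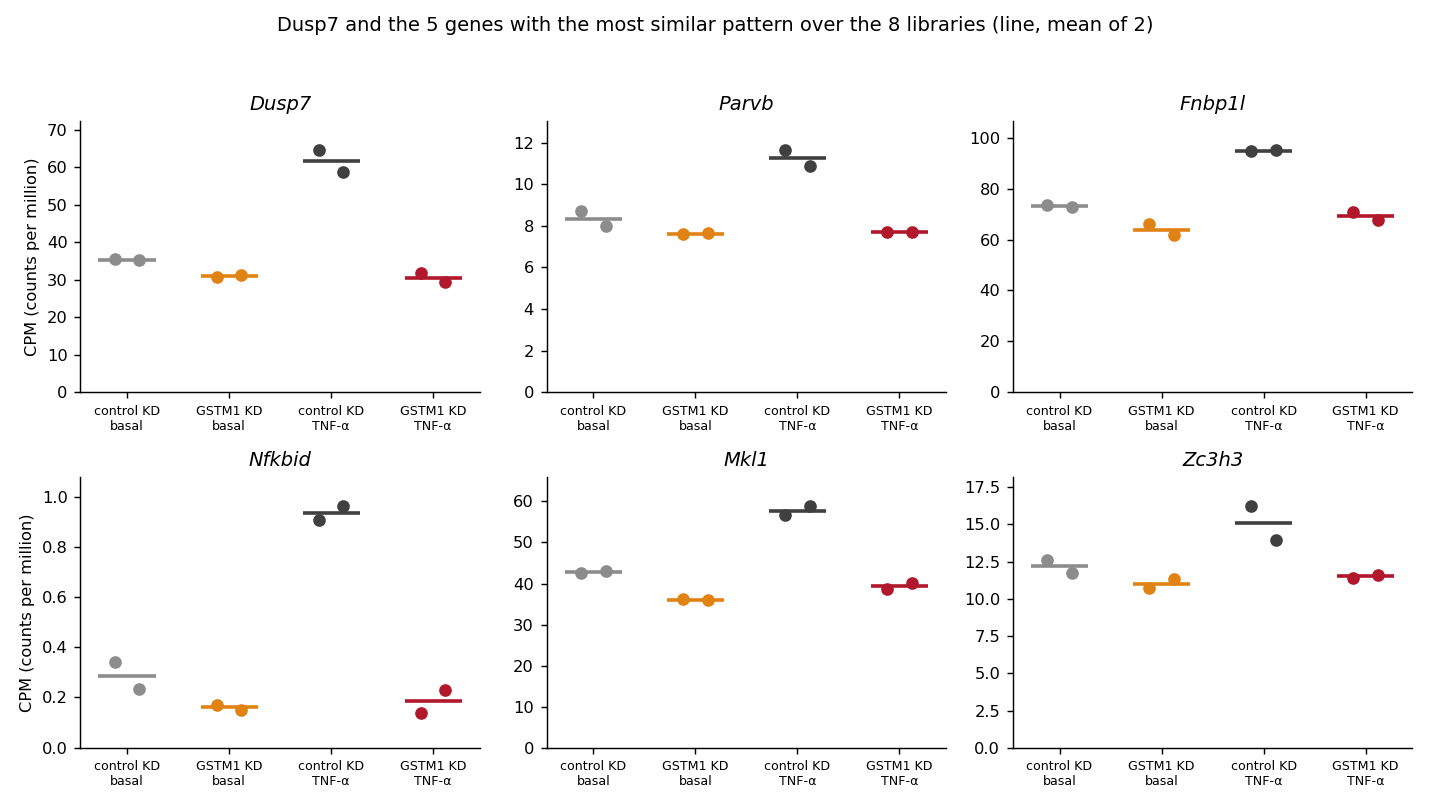
CPM (y axis, from 0) of Dusp7 and of the 5 genes with the highest Pearson's r to it, in the 2 libraries of each group (x axis), with a line at the mean of 2. In each panel the 2 stimulated control KD libraries are the highest, for example at 94.9 and 95.1 CPM in Fnbp1l, where the other 6 libraries run from 61.6 to 73.8 CPM.

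The rest of the MAP kinase pathway was described from 5 lists. Of 16 other DUSP family genes 11 were tested, and Dusp2, Dusp13, Dusp21, Dusp26 and Dusp27 had 14 counts or fewer in every library. With TNF-α 1 of the 11 was higher and 2 were lower in GSTM1 KD, where 7.26% and 8.92% of all genes were, namely Dusp28 (log2 change 1.79 ± 0.404), Dusp11 (-0.40 ± 0.0930), which encodes an RNA phosphatase, and Dusp3 (-0.48 ± 0.116), which encodes a small ERK and JNK phosphatase. The Dusp11 change was -0.15 with effective-length offsets (adjusted p = 0.594) and -0.16 over both states in the same setting (adjusted p = 0.294). Over both states 3 were higher and 2 lower, where 20.1% and 19.6% of all genes were. Among them was Dusp19 (0.87 ± 0.153, adjusted p = 0.00506). The median of the list in that test was 0.23. Among 6 tested phosphatases of other families that act on MAP kinases, 3 were higher over both states, namely Ppp2cb (0.57 ± 0.0534), which encodes a catalytic subunit of protein phosphatase 2A, and Ppm1b (0.27 ± 0.0638) and Ppm1d (0.30 ± 0.0766), which encode metal-dependent phosphatases. Ppp2cb was also higher in each state (0.62 and 0.50, adjusted p = 0.0263 and 0.0251). Over both states Ppp2cb passed in all 8 fits that left out a library, and Ppm1b and Ppm1d lost their calls in 4 and 5, both of them without replicate 2 of either GSTM1 KD group or of stimulated control KD (adjusted p = 0.0511 to 0.105). Within a state, the calls of Dusp28, Dusp11, Dusp3 and Ppp2cb were lost without either GSTM1 KD library (adjusted p = 0.0607 to 0.318).

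Of 11 genes of the ERK cascade, 3 were higher and 2 lower over both states, with a median of 0.17. Of all genes, 20.1% were higher and 19.6% lower in that test. Mapk7, which encodes the kinase ERK5, stood at 52.9 and 54.8 CPM in unstimulated control KD, against 17.4 and 17.6 CPM in unstimulated GSTM1 KD. In the stimulated libraries it stood at 57.3 and 53.5 CPM for control KD, against 16.1 and 16.2 CPM for GSTM1 KD. Its mean knockdown effect was -1.70 ± 0.0645 (adjusted p = 0.000123). Map2k5, which encodes the activator of ERK5, was higher (0.40 ± 0.0667). Map3k8 was the gene of this list that passed in the mean TNF-α response (1.25 ± 0.223, adjusted p = 0.0176), and its call was lost without any one of the 4 GSTM1 KD libraries (adjusted p = 0.0606 to 0.0874).

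Of 21 genes of the JNK and p38 cascades, 8 were higher and 7 lower over both states, with a median of -0.05. They stand beside 20.1% higher and 19.6% lower of all genes. Map2k4, which encodes an activator of JNK, was 1.79-fold higher (0.84 ± 0.0604). Map2k3, which encodes an activator of p38, was 2.25-fold lower (-1.17 ± 0.110), and Map3k11, which encodes a kinase upstream of JNK, was 1.96-fold lower (-0.97 ± 0.0708). Map3k6 passed in the mean TNF-α response (0.93 ± 0.181, adjusted p = 0.0246), and its call held only without replicate 1 of unstimulated control KD or replicate 2 of stimulated control KD and was lost in the other 6 fits (adjusted p = 0.0582 to 0.115).

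Of 20 genes that are targets or feedback inhibitors of ERK signalling, 5 were higher and 5 lower over both states, with a median of 0.08. Spry1, which encodes a feedback inhibitor of receptor signalling to ERK, stood at 37.8 and 39.0 CPM in unstimulated control KD, against 20.2 and 20.6 CPM in unstimulated GSTM1 KD. With TNF-α it stood at 31.8 and 29.6 CPM in control KD, against 9.70 and 11.8 CPM in GSTM1 KD, and its mean knockdown effect was -1.21 ± 0.0863 (adjusted p = 0.000219). Etv1, which encodes an ETS transcription factor, was higher (1.04 ± 0.108), as was Epha4 (0.58 ± 0.0607), which encodes an ephrin receptor. With TNF-α, Ier3, a stress response gene, was 2.40-fold lower in GSTM1 KD (log2 change -1.26, adjusted p = 0.0129), a call lost without either GSTM1 KD library (adjusted p = 0.0698 to 0.0879) and on 8 libraries (adjusted p = 0.112). In the mean TNF-α response 1 gene was higher and 2 were lower, where 4.81% and 1.96% of all genes were, namely Ier3 (1.54 ± 0.349), Spry1 (-0.63 ± 0.0857) and Etv5 (-0.57 ± 0.0960), which encodes another ETS factor. Spry1 passed in all 8 fits that left out a library, while the call of Ier3 was lost in 6, all but those without an unstimulated control KD library (adjusted p = 0.0757 to 0.156), and that of Etv5 in 3, without replicate 1 of unstimulated GSTM1 KD or either stimulated GSTM1 KD library (adjusted p = 0.0692 to 0.0780). Mapk7, Map2k5, Map2k4, Map2k3, Map3k11, Etv1 and Epha4 kept their calls over both states in all 8. These counts stand beside the 39.8% of all genes that passed over both states, and no list is called apart from them.

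**Figure D5:**
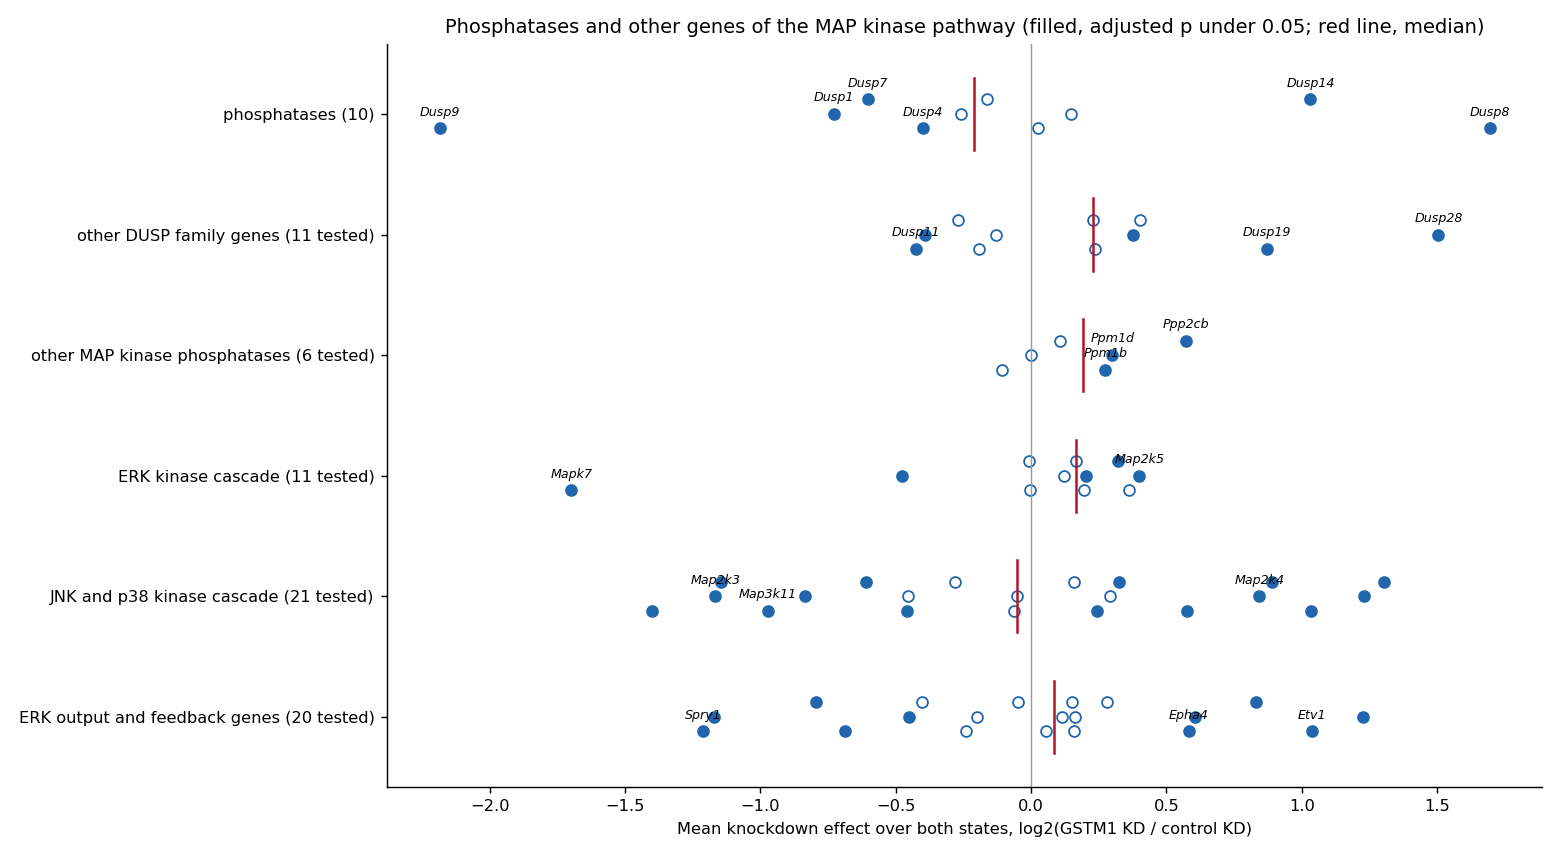
Mean knockdown effect over both states (x axis, log2) of the 10 phosphatases and of the tested genes of 5 other lists of the MAP kinase pathway (y axis), each point a gene and each red line a median. Names mark the phosphatases with an adjusted p under 0.05 and up to 3 genes of each other list. Dusp7 and Dusp9 are named and filled too, but their values are descriptions with no test. The red line of the phosphatases includes both. Points lie on both sides of 0 in every list, for example -0.73 in Dusp1 and 1.70 in Dusp8 among the phosphatases.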

How the data were processed

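Per the labels and the study's methods, strand-specific libraries were made from total RNA. According to the submitters' processing notes, the authors aligned reads against GRCm38 using STAR 2.5.4b and estimated abundance using RSEM 1.3.0. The authors deposited for each gene and library an expected count, a TPM value scaled by RSEM to the same total in every library, and an effective length in bases. The gene annotation and whether the counting used the strand are not given in the sources used here. Every library was assigned to its group from its label, and 0 columns were left unused.

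The rounded expected counts were tested in edgeR 4.0.16 (R 4.3.3). Genes were filtered with filterByExpr by group, libraries were scaled with TMM, and two-sided quasi-likelihood F-tests were adjusted by Benjamini-Hochberg over all genes tested, with a threshold of 0.05. Knockdowns were compared on the 4 libraries of a state, and TNF-α responses and mean effects on all 8. CPM are counts divided by the library size times its TMM factor. The ± after a log2 change, called the standard error of the model, is the size of the change divided by the square root of its F statistic. Since exact tests cannot reach 0.05 at 2 against 2, every p-value printed is from a fit across all genes in edgeR or DESeq2 (version 1.42.0). Dusp9 ratios have exact 95% intervals, and 3 counts were taken as the floor of detection. Likeness to Dusp7 used log2 CPM with a prior count of 2. Sequences were read from GENCODE M21 and RefSeq tables.

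The members, lists, tests and the rule for named genes were chosen with earlier results of these data known. All 10 members are named, with up to 3 genes per list and comparison past the threshold with the smallest p-values, and the 5 genes most like Dusp7. One gene that the rule names is not reported here. The alternatives were DESeq2, edgeR with DESeq2 size factors, edgeR scaled by library size only, no filter on low counts, a minimum of 10 counts per library, edgeR's newer quasi-likelihood method, a replicate block, effective-length offsets, 8 libraries for the knockdown effects, 4 for the responses, and leaving out each library. The procedures were tested on simulated data. Figures were drawn with matplotlib (version 3.10.9).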

Additional observations from a re-analysis of the deposited data

How the results depend on the processing

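Counts of the phosphatases past the threshold moved with the processing. For the TNF-α response of control KD, 4 of 9 passed in DESeq2, without the filter on low counts and with a replicate block, 2 of 8 (Dusp9 not tested) with at least 10 counts in every library, and 0 on the 4 libraries of that knockdown, against 1. For that of GSTM1 KD, 2 of 9 passed in DESeq2, without the filter and with a replicate block, 2 of 8 on the 4 libraries of that knockdown, and 1 with library size only, against 0. For the knockdown effect without TNF-α, Dusp5 was added to the 3 calls without the filter and with a replicate block. Dusp9 is left out here, because with the filter it was tested only through the group in which it was high. Dusp5 passed without the filter both without TNF-α (adjusted p = 0.0137) and in the mean knockdown effect (0.0136). With the block, and with Dusp9 left out, the call added without TNF-α was Dusp5 (adjusted p = 0.0195). The block also added Dusp1 (0.0438), Dusp6 (0.00662) and Dusp16 (0.0266) in the response of control KD, and Dusp6 (0.00290) and Dusp14 (0.0125) in that of GSTM1 KD.

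Over all genes, those that passed without TNF-α numbered 2492 in DESeq2, 3957 without the filter, 4712 with a replicate block and 2762 with all 8 libraries, against 1524. With TNF-α they numbered 4540 without the filter and 4302 with the block, against 2360. For the TNF-α response of control KD they numbered 742 in DESeq2, 1255 without the filter, 988 with the block and 72 on 4 libraries, against 403, and for that of GSTM1 KD 630, 1050, 808 and 691, against 406. For the mean TNF-α response they numbered 1987 without the filter and 1904 with the block, against 1038. The cause of these differences was not tested.

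The labels do not say what the replicate numbers mark. Deviations of same-numbered libraries from their group means correlated at r = 0.165 to 0.575 over the 6 pairs of groups (15332 genes, which are not independent replicates), a hint from the data only.

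Values on the log2 scale that changed sign under a setting were near 0 and did not pass: Dusp10 in the response of GSTM1 KD was -0.011 with library size only, Dusp8 in the mean TNF-α response was -0.017 with library size only, and Dusp6 in the mean knockdown effect was -0.067 with effective-length offsets. Dusp4 lost its call in the mean knockdown effect with library size only (adjusted p = 0.0640) and with effective-length offsets (adjusted p = 0.0521), in a range of 0.0123 to 0.0640 over its alternatives. Among the other named genes, Dusp11 with TNF-α was lost in DESeq2 (adjusted p = 0.0627), with library size only (0.0521) and with effective-length offsets, Dusp3 with effective-length offsets (0.139) and on 8 libraries (0.0629), Ier3 with TNF-α on 8 libraries (0.112), Ppm1d without the filter (0.0539) and Map3k6 with effective-length offsets (0.0736). The knockdown effects of Dusp1, Dusp8 and Dusp14 passed in each state under every alternative that kept all libraries.

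Leaving out each library gave 0 to 5 phosphatases (Dusp9 counted) and 1 to 5256 genes past the threshold without TNF-α, 0 to 5 and 0 to 5028 with TNF-α, 0 to 2 and 180 to 313 for the response of control KD, 0 to 1 and 74 to 444 for that of GSTM1 KD, 5 to 7 and 3608 to 6533 for the mean knockdown effect, and 1 to 5 and 513 to 1122 for the mean TNF-α response. Leaving out a library leaves 1 sample in its group, which is then assumed to vary like the others. These counts of phosphatases include Dusp9, and those for the mean effects include Dusp7, so they are no test of either gene. Changes of sign in tested values when a library was left out were all in values that did not pass, and gave ranges of -0.063 to 0.28 for Dusp6 and -0.11 to 0.021 for Dusp16 without TNF-α. With TNF-α they gave -0.32 to 0.13 for Dusp5, -0.34 to 0.20 for Dusp6 and -0.15 to 0.055 for Dusp10. For the response of control KD they gave -0.33 to 0.14 for Dusp5, -0.057 to 0.27 for Dusp8 and -0.46 to 0.64 for Dusp9, and for that of GSTM1 KD -0.13 to 0.22 for Dusp10. The mean knockdown effect of Dusp6 ran from -0.12 to 0.16, and the mean TNF-α responses of Dusp5 and Dusp8 from -0.041 to 0.19 and from -0.059 to 0.11. Dusp9 had 2 to 39 counts per library, so its intervals were wide.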
